A study of Mus musculus with 6 samples.

Results

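A set of 10 genes of glycan processing in the Golgi was followed in mouse pancreatic duct cells that received a hairpin against Atoh8. They were Man1a, Man1a2, Mgat1, Man2a1, Mgat2, Mgat5, B4galt1, Fut8, Fut11 and Slc10a7, 10 of the 18193 genes that could be read from a probe set carrying a single gene symbol. The 10 genes had 24 such probe sets, and the one with the highest mean signal over the 6 arrays stood for each gene. The set was put together with the values of this comparison known: Man2a1, Fut11 and Slc10a7 ranked 16, 18 and 29 from the bottom when all 18193 genes were ordered by fold change. Values of the 10 genes are therefore a description, and no p-value is attached to them.

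All cells were of the mPAC L20 line, a mouse pancreatic duct line, and all were infected with Ad.CMV.Neurog3, an adenovirus that expresses the endocrine-inducing transcription factor Neurog3 from the CMV promoter. An adenovirus added beforehand encoded a scrambled hairpin in the shControl group (3 arrays) and in the shAtoh8 group (3 arrays) a hairpin directed at Atoh8, also called Math6, which belongs to the basic helix-loop-helix factors. Both viruses were used at a multiplicity of infection of 40, and the cells were cultured for a further 44 to 46 h. The 3 replicates were independent experiments, but both groups came from 1 cell line, 1 hairpin stood for the loss of Atoh8, and no array lacked Neurog3.

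N-glycans reach the cis-Golgi as high-mannose chains. There the mannosidases encoded by Man1a and Man1a2 trim them, Mgat1 adds the first N-acetylglucosamine (GlcNAc), and Man2a1 then removes further mannoses, a step that needs the residue laid down by Mgat1. Mgat2 and Mgat5 start further branches, Fut8 adds fucose to the innermost GlcNAc of the core, and B4galt1 caps branches with galactose. Fut11 belongs by sequence to the fucosyltransferases, and Slc10a7 is a Golgi membrane protein of the bile acid carrier family whose loss in humans and mice disturbs Golgi glycosylation and the growing skeleton.

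Medians of the arrays ranged from 5.49 to 5.56 in log2 signal. In shAtoh8 replicate 2 the bio and cre hybridisation controls averaged 10.2, where the other arrays had 10.5 to 10.7, and the 3' actin probe set exceeded the 5' one by 0.354, where the others had 0.107 to 0.202; the values of the 10 genes without this array are given below for those that passed. Duct markers were present on every array, with a mean over 10 genes of 10.3 to 10.4 in both groups, although Cftr, which forms the duct chloride channel, was dim (3.70 in shControl and 3.72 in shAtoh8). The mean over 7 genes of dividing cells was 9.05 to 9.35 in shControl and 7.11 to 8.45 in shAtoh8, lowest in shAtoh8 replicate 3; its part in the values below was not tested. Within the even mean of the duct list, Epcam read -0.73 ± 0.19 (log2 fold change ± SE; -0.34 as the mean of its probe sets) and Car2 0.60 ± 0.12, each with groups apart. The islet hormone gene Iapp read -1.78 ± 0.39, also with groups apart. It stood alone in the islet list, whose other measured genes had overlapping groups and read from -0.50 (Chgb) to 0.21 (Ins2). The limma adjusted p-values of Epcam, Car2 and Iapp were 0.145, 0.0853 and 0.0965, and 0.0463, 0.0684 and 0.0189 with the replicate number as a block; these genes were named after their values were seen, and their part in the values below was not tested either. Fewer cells that express a gene and less of its RNA per cell cannot be told apart in such bulk samples. For Atoh8 itself the shControl arrays gave 8.75, 8.29 and 7.52 and the shAtoh8 arrays 7.83, 7.90 and 7.37; triplets of values are in the order of replicates 1, 2 and 3 throughout. The groups overlapped, and the limma adjusted p of its log2 fold change of -0.49 ± 0.30 (SE) was 0.573. That fold change was -0.82 without shControl replicate 3 and -0.21 without shControl replicate 1. Neurog3 read -0.57 ± 0.48 with pair differences of -0.67, -0.58 and -0.46, and its limma adjusted p was 0.706 without the block and 0.0330 with it. Its fold change was -0.99 without shControl replicate 3 and -0.16 without shControl replicate 1, and whether its probe set reads the cells' own gene or the viral copy was not analysed here.

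The 10 genes did not move together. Man2a1, Fut11 and Slc10a7 fell, by 2.88-fold, 2.81-fold and 2.64-fold. The early mannosidases Man1a and Man1a2 read higher in shAtoh8 on all 3 arrays, by 1.34-fold and 1.64-fold. The GlcNAc transferases Mgat1, Mgat2 and Mgat5, the galactosyltransferase B4galt1 and the core fucosyltransferase Fut8 had overlapping groups. Of the 10 genes, 3 passed the fit over all probe sets as lower and 0 as higher, where 0.638% and 0.517% of all 18193 genes did (limma, Benjamini-Hochberg adjusted p under 0.05). Since the genes were chosen on this contrast, nothing is read from that difference. With the replicate number as a block, Man1a2 was called higher in addition to the same 3 lower calls, where 1.92% of all genes were called higher and 2.75% lower. When single arrays were omitted, 0 of the 3 passed without shControl replicate 1, shControl replicate 2 or shAtoh8 replicate 1, Fut11 alone passed without shControl replicate 3, and Man2a1 and Fut11 passed without shAtoh8 replicate 3. The fits in which none of the 3 passed called 3, 0 and 1 of all 18193 genes. Over all such omissions the log2 fold changes stayed between -1.64 and -1.37 for Man2a1, -1.59 and -1.42 for Fut11, and -1.54 and -1.32 for Slc10a7.

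**Figure D1:**
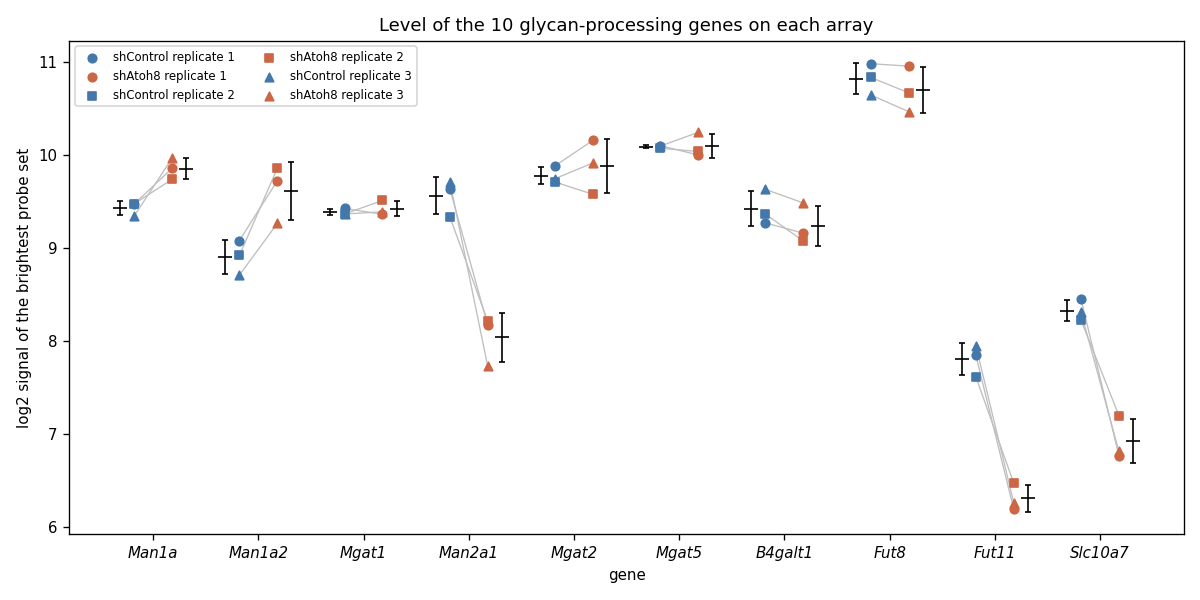
Level of each of the 10 genes on each array (log2 signal of the brightest probe set, vertical axis). From Man1a to B4galt1 the genes are in pathway order, followed by Fut8, Fut11 and Slc10a7. Blue marks shControl and orange shAtoh8, with a marker shape and a connecting line for each replicate number. Black bars give the mean ± SD of 3 arrays. The groups lie apart for Man1a and Man1a2 (shAtoh8 higher) and for Man2a1, Fut11 and Slc10a7 (shAtoh8 lower), and overlap for the other 5 genes; the height of different genes is not comparable.

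The groups did not overlap for 3 genes in the lower direction and 2 in the higher, shares that were 11.4% and 12.6% over all genes. Within replicate numbers, all 3 differences were below 0 for 5 genes (21.5% of all genes) and above 0 for 2 (24.0%), and 3 genes had differences of both signs. The fold change was below 0 for 5 of the 10 genes, as for 46.9% of all genes. The median log2 fold change of the 10 genes was -0.06, beside 0.01 over all genes. The median absolute log2 fold change was 0.30, beside 0.11 over all genes. The median level of the 10 genes was 9.37 in log2 signal, beside 6.84 over all genes, so these backgrounds were not of like brightness.

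The promoter windows of the 3 genes that fell and of Man1a, which lay higher, are shown because these genes form the contrast within the set. For Man1a2, which also lay higher, no window was available. Each window runs from 250 bases before to 50 bases after a start site as the RefSeq promoter table gives it and is printed 5′ to 3′ on the strand of the gene (RefSeq, GRCm38.p6). Capitals mark the letters CANNTG, the E-box that basic helix-loop-helix factors bind. For Man2a1 and Man1a that site lies 961 and 879 bases inside the outer edge of the RefSeq gene, so both windows lie within the gene; for Fut11 and Slc10a7 it lies 0 and 5 bases inside.
Man2a1, chr17:64601399-64601698, plus strand: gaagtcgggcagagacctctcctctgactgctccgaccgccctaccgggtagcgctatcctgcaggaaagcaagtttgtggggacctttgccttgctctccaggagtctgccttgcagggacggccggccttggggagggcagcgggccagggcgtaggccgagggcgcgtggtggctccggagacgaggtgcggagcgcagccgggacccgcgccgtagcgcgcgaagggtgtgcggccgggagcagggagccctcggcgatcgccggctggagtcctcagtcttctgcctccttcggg
Fut11, chr14:20694718-20695017, plus strand: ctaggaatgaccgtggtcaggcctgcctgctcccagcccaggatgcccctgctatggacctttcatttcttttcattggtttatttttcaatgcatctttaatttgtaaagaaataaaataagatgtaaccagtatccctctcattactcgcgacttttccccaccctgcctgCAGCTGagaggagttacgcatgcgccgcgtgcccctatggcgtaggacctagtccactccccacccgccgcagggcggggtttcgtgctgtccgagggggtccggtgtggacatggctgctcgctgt
Slc10a7, chr8:78509078-78509377, plus strand: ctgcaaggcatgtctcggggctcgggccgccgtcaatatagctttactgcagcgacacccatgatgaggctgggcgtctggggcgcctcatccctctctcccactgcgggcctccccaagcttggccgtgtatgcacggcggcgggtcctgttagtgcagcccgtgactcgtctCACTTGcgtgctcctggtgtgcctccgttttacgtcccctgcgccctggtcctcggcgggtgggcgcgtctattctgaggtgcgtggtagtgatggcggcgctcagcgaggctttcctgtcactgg
Man1a, chr10:54075688-54075987, minus strand: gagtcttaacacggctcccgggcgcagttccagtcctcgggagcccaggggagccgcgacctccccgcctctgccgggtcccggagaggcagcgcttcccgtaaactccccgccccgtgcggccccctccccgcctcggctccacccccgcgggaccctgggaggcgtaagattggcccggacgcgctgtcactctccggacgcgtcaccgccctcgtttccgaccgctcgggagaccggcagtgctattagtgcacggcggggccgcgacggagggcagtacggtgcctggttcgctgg

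CANNTG reads the same on both strands, so 1 search covered both. Fut11 held it once, as CAGCTG with its first base at -77 from that start site, and Slc10a7 held it once, as CACTTG at -76. The printed windows of Man2a1 and Man1a held none, and the sequence around the outer edges of these genes was not analysed here. Of the 10 genes 9, all but Man1a2, had at least 1 window, 14 windows in all. CANNTG was in 8 of the 14 windows, which belong to Mgat1, Fut8, Fut11 and Slc10a7, beside 72.3% of 32851 windows of mouse genes, with a median of 1 per window. The narrower letters CAGATG, or CATCTG on the other strand, are a subset of CANNTG; they were in 0 of the 14 windows and in 17.2% of all windows. A match is a match of letters alone, and its absence says only that these letters are not in these windows.

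Man1a (chr10:53904785-54076616) and Man1a2 (chr3:100562203-100685473) encode the cis-Golgi mannosidases that open the pathway. Man1a read 9.47, 9.47 and 9.34 (log2 signal) in shControl, and 9.86, 9.74 and 9.96 in shAtoh8. Every shAtoh8 array was above every shControl array, with a log2 fold change of 0.42 ± 0.09 (SE) and means of 9.43 ± 0.08 and 9.85 ± 0.11 (SD, n = 3 each). The other probe set of Man1a gave 0.57 ± 0.14, again without overlap. Neither probe set passed the fit, with or without the replicate block.

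Man1a2 read 9.08, 8.92 and 8.71 in shControl, and 9.72, 9.86 and 9.26 in shAtoh8. The groups were apart, and in both of them replicate 3 was the lowest. The log2 fold change was 0.71 ± 0.17 (SE), from a mean of 8.90 ± 0.19 to 9.61 ± 0.31 (SD, n = 3 each). The pair differences were 0.64, 0.94 and 0.56. Of its 4 probe sets, 3 were higher on every shAtoh8 array, with log2 fold changes of 0.71, 0.48 and 0.51. The dimmest (mean 5.15) stood at 0.03 with overlapping groups. Man1a2 passed with the replicate block and, as the mean of its 4 probe sets, without it (log2 fold change 0.43).

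Mgat1 (chr11:49244191-49263027), whose product opens the route from high-mannose to hybrid and complex chains, was read by 1 probe set. It read 9.42, 9.37 and 9.36 in shControl, and 9.36, 9.51 and 9.39 in shAtoh8. The arrays of both groups interleaved, and the log2 fold change was 0.04 ± 0.08 (SE).

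Man2a1 (chr17:64600688-64755110), the Golgi alpha-mannosidase II that acts after Mgat1, had the most negative fold change of the 10 genes. On its only probe set it read 9.64, 9.34 and 9.71 in shControl, and 8.17, 8.21 and 7.73 in shAtoh8. The highest shAtoh8 array was more than 1 log2 unit below the lowest shControl array, and shAtoh8 replicate 3 was the lowest of all. It fell by 1.52 ± 0.16 (SE) on the log2 scale, from a mean of 9.56 ± 0.20 to 8.04 ± 0.27 (SD, n = 3 each). The pair differences were -1.46, -1.12 and -1.98, widest in replicate 3. When single arrays were omitted the value lay between -1.64 and -1.37, and without shAtoh8 replicate 2 it was -1.61. No other probe set of Man2a1 carried its symbol alone, so this gene had 1 reading here. Its isozyme Man2a2, which can carry out the same trimming, read -0.18 ± 0.15 (limma adjusted p = 0.706) with overlapping groups, and -0.39 to -0.08 over the alternatives.

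Mgat2 (chr12:69184158-69186773) and Mgat5 (chr1:127204919-127488334) start branches on the trimmed core, and the branch made by Mgat5 is the one favoured by galectins. Mgat2 read 9.88, 9.71 and 9.74 in shControl, and 10.2, 9.58 and 9.91 in shAtoh8. Its pair differences had both signs (0.27, -0.13 and 0.17), and its probe sets gave 0.10 and 0.08. Mgat5 read 10.1 on all 3 shControl arrays, and 10.0, 10.0 and 10.2 in shAtoh8, a log2 fold change of 0.00 ± 0.09 (SE). Its 3 probe sets gave 0.00, 0.01 and -0.26, the last of them dim (mean 5.15). These levels differed by less than the spread between arrays, except on that dim set, where the groups still overlapped.

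B4galt1 (chr4:40804602-40853984), the galactosyltransferase of the trans-Golgi, read 9.27, 9.36 and 9.63 in shControl, and 9.16, 9.07 and 9.48 in shAtoh8. Replicate 3 was the highest in both groups, and each shAtoh8 array was below its own shControl array by 0.11, 0.29 and 0.15. The log2 fold change of -0.18 ± 0.14 (SE) was about the size of the SD within the groups (0.19 and 0.22).

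The fucosyltransferases of the set parted. Fut8 (chr12:77237430-77475998), which makes core fucose, read 11.0, 10.8 and 10.6 in shControl, and 11.0, 10.7 and 10.5 in shAtoh8. Replicate 1 was highest and replicate 3 lowest in both groups, and the log2 fold change was -0.12 ± 0.15 (SE). Its other probe sets gave -0.17 and -0.47 at low signal (means 6.18 and 4.39). On the first of these the groups were apart, and on the second they overlapped.

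Fut11 (chr14:20694968-20700197) read 7.84, 7.61 and 7.95 in shControl, and 6.19, 6.47 and 6.26 in shAtoh8. On this brightest set the groups were separated by more than 1 log2 unit, and the 3 shAtoh8 arrays lay close together. On the other 2 sets the groups lay nearer, with 7.25 against 6.38 and 6.73 against 6.47 for the lowest shControl and highest shAtoh8 array. Fut11 fell by 1.49 ± 0.12 (SE) on the log2 scale, from a mean of 7.80 ± 0.17 to 6.31 ± 0.15 (SD, n = 3 each), and its log2 fold change was -1.57 without shAtoh8 replicate 2. The pair differences were -1.65, -1.14 and -1.69. All 3 probe sets of Fut11 were lower on every shAtoh8 array, with log2 fold changes of -1.49, -1.44 and -0.64, and the first 2 passed the fit without the block. The size therefore depended on the probe set, and their mean was -1.19. Fut10, the closest relative of Fut11 among the fucosyltransferases, read -0.30 ± 0.11 (limma adjusted p = 0.291), and -0.14 as the mean of its probe sets. Its groups lay narrowly apart, with 6.09 on the lowest shControl and 6.02 on the highest shAtoh8 array.

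Slc10a7 (chr8:78509323-78734012) read 8.45, 8.22 and 8.31 in shControl, and 6.77, 7.20 and 6.81 in shAtoh8. All shAtoh8 arrays were below all shControl arrays, with replicate 2 the nearest. Slc10a7 fell by 1.40 ± 0.13 (SE) on the log2 scale, from a mean of 8.33 ± 0.11 to 6.93 ± 0.24 (SD, n = 3 each), and its log2 fold change was -1.54 without shAtoh8 replicate 2. The pair differences were -1.68, -1.02 and -1.49. The 4 probe sets of this gene fell into unlike readings. A second set, with a mean of 5.95, gave -1.57 ± 0.13 and went from 6.82, 6.46 and 6.92 to 5.28, 5.05 and 5.16. The remaining sets gave 0.16 ± 0.10 (mean 6.50) and -0.09 ± 0.09 (mean 3.73), with overlapping groups. As the mean of all 4 the log2 fold change was -0.73. Which transcript or exon each set reads was not analysed here.

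**Figure D2:**
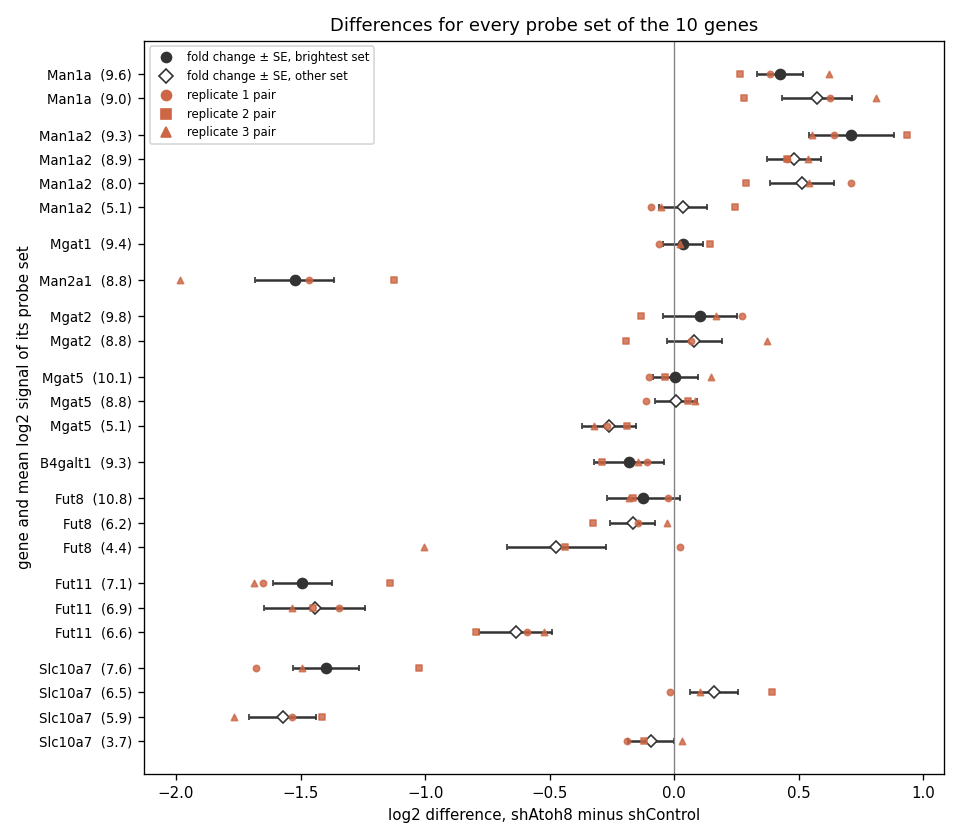
Log2 difference between shAtoh8 and shControl (horizontal axis) for all 24 probe sets of the 10 genes, with the mean log2 signal of each set in parentheses, black symbols for the fold change ± limma SE and orange symbols for the 3 replicate pairs. The sets of Fut11 all lie below 0 (-1.49 to -0.64), those of Man1a all above 0 (0.42 and 0.57), and those of Slc10a7 split between about -1.5 and about 0.

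Of the 10 genes 7 had several probe sets, and for 5 of these all sets had the same sign; the exceptions were Mgat5 and Slc10a7. In all, 5 of the 24 probe sets passed without the block (1 of Man2a1, 2 of Fut11 and 2 of Slc10a7) and 8 passed with it, the others being the third set of Fut11 and 2 sets of Man1a2. The matching shares over all probe sets were not computed, and the genes were chosen on this contrast. Nothing is therefore read from these counts.

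Likeness was measured as the root mean square difference, over the 6 arrays, between the levels of 2 genes after each gene's own mean was removed. By this measure Slc10a7 was the nearest of all 18193 genes to Fut11 and Fut11 the nearest to Slc10a7 (0.110 log2 units). Tmem9b, which encodes a lysosomal membrane protein, came second for both (0.119 and 0.124) and first for Man2a1 (0.123), followed there by Nrm, the gene for nurim of the nuclear envelope (0.125). The log2 fold change was -1.44 ± 0.09 (SE) for Tmem9b and -1.28 ± 0.15 for Nrm, which gave -0.55 as the mean of its probe sets. Man2a1 and Fut11 differed by 0.150 and Man2a1 and Slc10a7 by 0.184. With 6 arrays in 2 groups the measure mainly picks genes with a like difference between the groups.

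Outside the 10 genes, 185 other genes of glycosylation and the Golgi were arranged in 12 lists, and 181 of them were measured. None passed the fit over all probe sets (0 of 181 in limma, against 40 at an unadjusted p under 0.05), beside 1.15% of all genes. The 40 were 22.1% of the lists, and 17.5% of all genes were under 0.05 unadjusted. The 181 genes were also brighter, with a median level of 9.17 beside 6.84 over all genes. With the replicate block 9 passed, 5 higher and 4 lower, or 4.97% beside 4.67% of all genes. The median log2 fold change over the 181 genes was 0.02, beside 0.01 over all genes. Gfpt1, C1galt1c1, Galnt7, Gcnt1 and Slc26a2 are named because they passed with the block, after their values were seen.

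With the block 2.75% of all genes were called lower. Upstream of the 10 genes, 1 of 28 genes that build the N-glycan precursor in the endoplasmic reticulum (median 0.01) fell with the block. This was Alg10b, which adds the terminal glucose of the precursor, with a log2 fold change of -1.19 ± 0.21 (SE) and a limma adjusted p of 0.0558, and 0.0245 with the block. Of 17 genes of nucleotide sugar synthesis and transport (median 0.11) 2 fell with the block, and both belong to the hexosamine route that makes UDP-GlcNAc, the donor used by the Mgat enzymes. Gfpt1, the entry enzyme of that route, had -0.94 ± 0.17 (limma adjusted p = 0.0594, and 0.0189 with the block), and Uap1, which forms UDP-GlcNAc, had -0.55 ± 0.10 (0.0547 and 0.0300), with nearly equal pair differences of -0.54, -0.56 and -0.55. As means of their probe sets the log2 fold changes were -0.32 for Gfpt1 and -0.31 for Uap1. The other hexosamine route genes of the list had overlapping groups. Gnpnat1 read 0.29 ± 0.27 (pair differences 0.19, 0.34 and 0.35), Pgm3 0.11 ± 0.12 and Gfpt2 -0.06 ± 0.10, so the listed route did not fall as a whole.

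Beside the members themselves, 0 of 10 other mannosidases and branching enzymes passed in either limma fit (2 at an unadjusted p under 0.05, beside 17.5% of all genes; median -0.09). Mgat4a, which starts a branch parallel to that of Mgat5, had the smallest p and groups that lay apart (-0.63 ± 0.14, limma adjusted p = 0.0905, and 0.0526 with the block), and -0.37 as the mean of its probe sets. Of 14 other genes of fucose transfer and GDP-fucose supply 0 passed in either limma fit (2 at an unadjusted p under 0.05, median 0.01), led by Slc35c1, the Golgi carrier for GDP-fucose, which was higher on every shAtoh8 array (0.47 ± 0.15, adjusted p = 0.205, and 0.0653 with the block). Of 16 other galactosyl- and sialyltransferases (median -0.03) 1 fell with the block, B4galt4, a relative of B4galt1 (-1.01 ± 0.30, limma adjusted p = 0.181, and 0.0369 with the block). Without shControl replicate 3 the log2 fold change of B4galt4 was -0.66. Over all genes 2.75% were called lower with the block.

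O-GalNAc glycosylation builds mucin-type chains in the same compartment. Of 17 genes of this route (median 0.05), 4 rose with the block and 0 fell, beside 1.92% and 2.75% of all genes. The list was drawn up with earlier results of these data known. It was also brighter, with a median level of 8.99 beside 6.84 over all genes, so nothing is read from that difference. The 4 that rose were C1galt1, the core 1 galactosyltransferase (0.68 ± 0.13), its chaperone C1galt1c1 (0.49 ± 0.13), the GalNAc transferase Galnt7 (0.58 ± 0.13) and the branching enzyme Gcnt1 (0.60 ± 0.21). Their limma adjusted p-values were 0.0248, 0.0464, 0.0408 and 0.0480 with the block and 0.0720, 0.156, 0.0905 and 0.247 without it. As means of their probe sets C1galt1c1 and Gcnt1 read 0.28 and 0.37, and without shControl replicate 3 Gcnt1 read 0.38. Of the 17 genes 7 read below 0, the lowest being Galnt3 at -0.35 ± 0.15 with overlapping groups. Of 24 glycosaminoglycan genes (median -0.10) the sulfate carrier Slc26a2 rose with the block (0.70 ± 0.20, limma adjusted p = 0.170 without and 0.0292 with it), and the heparan sulfate enzyme Extl3 had the smallest p without it (-0.39 ± 0.09, 0.0981).

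In the other 5 lists 0 genes passed in either limma fit. At an unadjusted p under 0.05 there were 2 of 13 genes of glucose trimming and the lectin folding cycle (median -0.04, smallest p Edem3 at 0.25 ± 0.10), 3 of 13 of Golgi ion balance and the COG tether (0.06, Cog8 at 0.36 ± 0.10), 5 of 17 of Golgi structure (0.15, Golga1 at 0.39 ± 0.08), 1 of 8 galectins (0.06, Lgals2 at 0.28 ± 0.10) and 1 of 4 lysosomal and cytosolic mannosidases (0.07, Man2b1 at 0.26 ± 0.10), beside 17.5% of all genes. Golga1 read 0.16 as the mean of its probe sets.

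**Figure D3:**
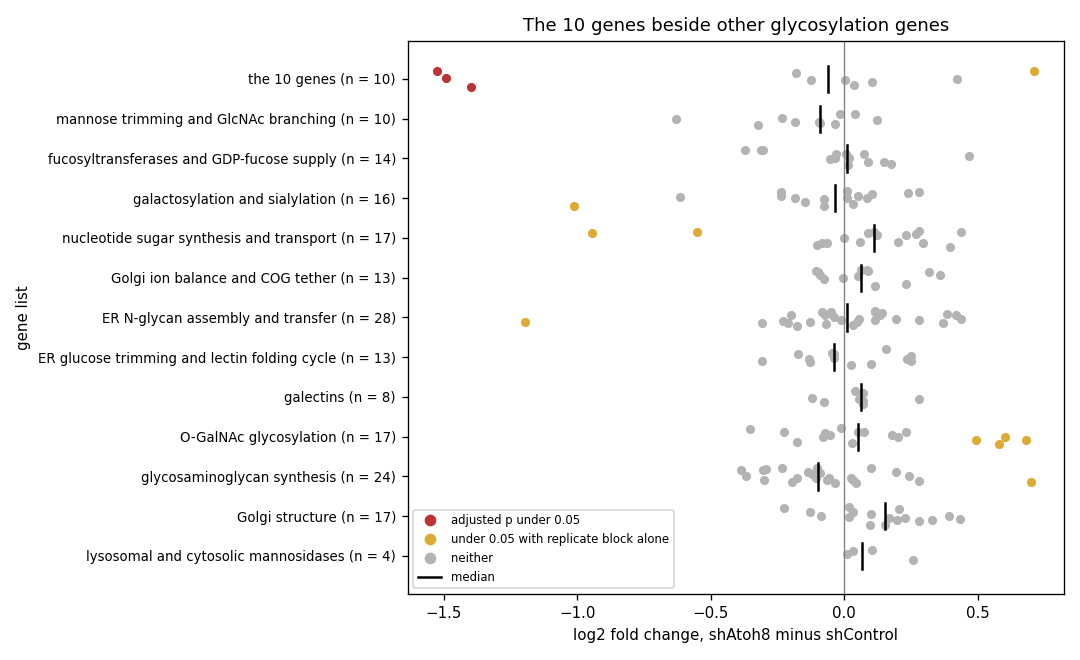
Log2 fold change, shAtoh8 minus shControl (horizontal axis), for the 10 genes and for each of 12 lists of other glycosylation and Golgi genes, with 1 point per gene, a black line at each median, red for an adjusted p under 0.05, yellow for genes under 0.05 with the replicate block alone and grey for neither. The 3 red points belong to the 10 genes (-1.52, -1.49 and -1.40), and the points of other lists lie between -1.19 and 0.70.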

How the data were processed

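The authors deposited log2 signals for the probe sets of 6 Affymetrix arrays, computed with RMA in the affy package, per the submitters' processing notes, which name no versions. RMA puts arrays on a common distribution, so a shift of most genes would have been removed. Of 45101 probe sets, 64 controls were left out and 45037 tested, without a brightness filter. Platform annotation gave 34945 probe sets 1 symbol, 932 several and 9160 none; a RefSeq table (GRCm38.p6) changed 0 symbols.

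Samples were grouped by title. shAtoh8 was compared with shControl in limma 3.58.1 (R 4.3.3; lmFit and eBayes, 4 residual and 3.30 prior degrees of freedom), two-sided, with Benjamini-Hochberg adjustment over all 45037 probe sets at 0.05. The number of arrays limits the precision. The code was tested on simulated data. Deviations from group means correlated at 0.407, 0.187 and 0.433 between arrays of the same replicate number and at -0.351 to 0.0292 otherwise. Such deviations cancel over the arrays of a group, so the second range is not separate evidence. The numbers were taken to pair the arrays. The main fit had no block, and block results are given where they changed a call.

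The 10 genes, the lists and the naming rule were chosen with earlier results of these data known. Named were the 10 genes, Atoh8, up to 3 passing genes per list (or that with the smallest p) and the 2 genes nearest in pattern to Man2a1, Fut11 and Slc10a7; others serve a direct comparison. Of 240 list entries, marker lists included, 229 matched. Of the marker lists, acinar, islet, mesenchymal, endothelial and leukocyte genes had means of 5.97 to 6.17, 5.34 to 6.16, 5.82 to 5.90, 4.47 to 4.62 and 4.93 to 5.04 over the arrays. These means cover brighter single genes, among them mesenchymal Vim (mean 13.8 over all arrays), acinar Cela1 (8.63) and islet Iapp (7.76 in shControl). The 17 alternatives covered scaling, brightness, block, variance model, array weights, probe set choice and arrays left out. Scanner files were not used, so background correction and scan batches were not examined.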

Additional observations from a re-analysis of the deposited data

How the results depend on the processing

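Alternatives numbered 17. The log2 fold changes of Man2a1, Fut11 and Slc10a7 stayed below 0 in each, from -1.72 to -1.29, -1.67 to -1.19 and -1.59 to -0.73, and those of Man1a and Man1a2 stayed above 0, from 0.32 to 0.50 and 0.43 to 0.89. Mgat1, Mgat2 and Mgat5 changed sign in 2, 1 and 7. The median of the 10 genes moved from -0.06 to -0.13 as the mean of probe sets. B4galt1 and Fut8 stayed below 0, from -0.30 to -0.08 and -0.25 to -0.01. Lgals2 went down to 0.16 with the block and without both arrays of replicate 3. Without shControl replicate 1, 2 or 3 the fit called 0, 0 and 1 of the 10 genes. Without shAtoh8 replicate 1, 2 or 3 it called 0, 3 and 2 of them (range 0 to 3). Over all genes these fits called 3, 0, 21, 1, 117 and 41 (range 0 to 117), and in the lists 0 to 2. The counts of 0 are limma's at an adjusted p under 0.05. The replicate block changed the counts to 4 of the 10 genes, 9 of 181 list genes and 849 of all genes (349 higher, 500 lower, against 94 and 116); among the 10 genes it changed the call of Man1a2 alone. With the block and without both arrays of replicate 1, 2 or 3, the fit called 0, 4 and 0 of the 10 genes. It called 0, 9 and 0 list genes, and 0, 966 and 0 of all genes. Over all genes, brighter probe sets alone gave 324, array weights 339 and the mean of probe sets 459; in the lists these gave 3, 4 and 3, cyclic loess 1, and the trend and robust variance model 2. Median centring called 3 of the 10 genes and gave 76 higher and 121 lower calls over all genes.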
